A study of Mus musculus with 3 samples.

Results

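The 5 dopamine receptor genes, *Drd1*, *Drd2*, *Drd3*, *Drd4* and *Drd5*, were examined in the accessible peaks of dopaminergic neurons (DNs) of the midbrain. The members were all peaks that overlap the gene body of one of the 5 genes, as annotated in GENCODE M21, or lie within 50 kb of it. By this rule, 27 of the 55326 peaks of the list were counted for the 5 genes, and no peak was counted for 2 of them. The peaks came from single-nucleus ATAC-seq (snATAC-seq), in which a transposase inserts adaptors into open chromatin of isolated nuclei, of the ventral tegmental area (VTA) of wild-type C57Bl/6Nl male mice. There were 2 libraries, from mice aged 7 weeks and 9 weeks, and the authors pooled the nuclei of the DN cluster of both into 1 peak list. The nuclei were sorted by scatter and DNA stain, with no marker of cell type, and the DN cluster was chosen afterwards from gene scores. The list gives positions in mm10 with no height, score or read count. No value therefore has a spread between replicates, no test between genes was possible, and a region without a peak is one where none was called. A peak that a few nuclei carry strongly and one that all nuclei carry weakly cannot be told apart. The mES cells of the series were not analysed here.

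Dopamine receptors are G-protein-coupled receptors of 2 classes. The D1-like receptors, encoded by *Drd1* and *Drd5*, couple to stimulatory G proteins and raise cyclic AMP. The D2-like receptors, encoded by *Drd2*, *Drd3* and *Drd4*, couple to inhibitory G proteins, lower cyclic AMP and, for *Drd2* in particular, open inwardly rectifying potassium channels. DNs use the D2 receptor as an autoreceptor: it sits on their own cell bodies, dendrites and terminals and restrains firing and dopamine release. *Drd1* is known mainly from target neurons in the striatum, and *Drd3* from limbic target regions and a part of the DNs.

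The label of the peak list was checked against marker genes. All 12 DN markers examined, among them *Th*, *Slc6a3*, *Slc18a2* and *Nr4a2*, had a peak overlapping the 1 kb on either side of a transcription start site (TSS), against 58.6% of all 21755 protein-coding genes. The same held for 1 of 7 markers of the oligodendrocyte lineage, 1 of 5 of astrocytes, 0 of 4 of microglia and 2 of 5 of glutamatergic and GABAergic neurons. A peak in the gene or the 2 kb upstream was found for 2 of 7, 2 of 5, 1 of 4 and 4 of 5 of these markers in the same order, for all 12 DN markers and for 65.2% of protein-coding genes. At the most upstream TSS alone, 9 of the 12 DN markers had a peak, against 54.2% of protein-coding genes. For the other markers above, in the same order, it was 0 of 7, 1 of 5, 0 of 4 and 2 of 5. *Olig1*, *Olig2* and *Sox10* had no peak in the gene or the 2 kb upstream. *Cx3cr1*, a microglial marker, had 9 peaks in its gene body, which the annotation used here extends over 168.3 kb, and none near a TSS. Of 6 markers of striatal projection neurons, which are the main carriers of *Drd1* and *Drd2* in the forebrain, 1 had a peak near a TSS, and *Adora2a* and *Tac1* had no peak within 50 kb. Some DN markers served the authors to choose the cluster, so their peaks are not independent of the label.

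Each of the 5 genes had 1 peak within 1 kb of an annotated TSS. All 5 also had a peak in the gene body, as did 63.8% of protein-coding genes, and a peak within 50 kb, as did 83.2%. For *Drd1*, *Drd2*, *Drd3* and *Drd5* the TSS peak lay at the most upstream TSS, called the outer TSS here, and 54.2% of all protein-coding genes had a peak there. For *Drd4*, the peak lay near the start of a shorter transcript inside the gene, and none was called at the outer TSS. The sequences of these peaks are shown because they are the accessible DNA nearest to the start of each gene. They were read from RefSeq's copy of GRCm38, the assembly that mm10 is, on the strand of the gene and from 5′ to 3′. Untranslated exons were left out, and at most 250 bases are given. The *Drd4* stretch lies inside the gene, in intron 2 and the coding sequence of exon 3. Capitals mark exact matches to the Sp and Klf box GGGCGG, or its reverse complement CCGCCC, and to the E-box CAGCTG.
*Drd1*, chr13:54055706-54055955, minus strand: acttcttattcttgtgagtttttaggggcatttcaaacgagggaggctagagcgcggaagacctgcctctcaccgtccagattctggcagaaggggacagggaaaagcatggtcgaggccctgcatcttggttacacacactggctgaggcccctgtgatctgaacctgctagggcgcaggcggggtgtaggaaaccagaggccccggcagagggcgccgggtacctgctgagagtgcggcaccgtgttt
*Drd2*, chr9:49340110-49340359, plus strand: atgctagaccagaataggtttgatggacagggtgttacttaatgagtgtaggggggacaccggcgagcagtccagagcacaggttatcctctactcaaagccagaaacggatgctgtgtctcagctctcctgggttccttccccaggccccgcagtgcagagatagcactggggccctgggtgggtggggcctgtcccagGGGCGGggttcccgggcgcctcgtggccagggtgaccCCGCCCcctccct
*Drd3*, chr16:43753731-43753980, plus strand: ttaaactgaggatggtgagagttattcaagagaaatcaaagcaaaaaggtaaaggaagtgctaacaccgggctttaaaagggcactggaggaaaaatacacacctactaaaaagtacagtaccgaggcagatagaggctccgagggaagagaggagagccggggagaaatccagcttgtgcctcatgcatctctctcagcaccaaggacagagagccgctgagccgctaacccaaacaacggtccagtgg
*Drd4*, chr7:141293865-141294114, plus strand: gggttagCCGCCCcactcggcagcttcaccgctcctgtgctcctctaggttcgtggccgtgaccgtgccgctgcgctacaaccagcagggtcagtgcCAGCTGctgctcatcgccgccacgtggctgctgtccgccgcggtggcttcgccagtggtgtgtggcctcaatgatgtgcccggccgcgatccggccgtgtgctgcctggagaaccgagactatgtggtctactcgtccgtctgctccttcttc
*Drd5*, chr5:38319140-38319366, plus strand: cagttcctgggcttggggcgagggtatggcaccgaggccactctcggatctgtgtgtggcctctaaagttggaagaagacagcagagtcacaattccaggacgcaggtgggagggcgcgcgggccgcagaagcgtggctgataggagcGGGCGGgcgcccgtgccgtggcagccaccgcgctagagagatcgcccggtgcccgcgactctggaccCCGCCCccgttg
The *Drd2* and *Drd5* stretches each hold 2 matches to the Sp and Klf box, the *Drd4* stretch holds 1 and 1 E-box, and those of *Drd1* and *Drd3* hold none. The parts of these peaks that are not shown held 1 Sp and Klf box at *Drd1*, 1 E-box CAGCTG at *Drd5* and further Sp and Klf boxes at *Drd2*.

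*Drd2* encodes the autoreceptor. The gene occupies chromosome 9 from 49340627 to 49408177 in mm10, is transcribed from the plus strand and is 67.6 kb long. It had 13 peaks, of which 7 lay in the gene body, 2 upstream and 4 downstream. This is 48.1% of the peaks counted for all 5 genes. By comparison, 16.2% of protein-coding genes had at least as many peaks within 50 kb, and 6.04% at least as many in the gene body. Because long genes hold more peaks, *Drd2* was also set beside the 5303 protein-coding genes of 0.5 to 2 times its length. These had a median of 2 peaks in the gene body and 5 within 50 kb, and 9.28% of them (492 genes) had 7 or more in the body. *Drd2* was therefore in the upper part of the distribution and not at its end. The density in the gene body was 103.6 peaks per Mb.

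All 7 peaks in the *Drd2* gene body lay in the first intron, which spans 54.9 kb and makes up 81.2% of the gene. Their centres lay 5.08, 13.5, 20.7, 25.4, 26.5, 45.2 and 46.4 kb downstream of the TSS. Some of them were close neighbours, with the fourth and the fifth peak separated by 586 bp and the sixth and the seventh by 793 bp. The longest stretch between these intronic peaks without another peak was 18.2 kb. No peak was called in the last 20.9 kb of the gene, which hold exons 2 to 8 with the whole coding sequence, including exon 6, which is skipped in the short isoform of the receptor. Among the 1796 protein-coding genes whose first intron is 0.5 to 2 times as long, the median first intron held 1 peak, 38.0% held none, and 6.24% (112 genes) held 7 or more. In peaks per Mb, the first intron of *Drd2* had 127.6 and the median of these first introns was 21.1.

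At the start of *Drd2*, the peak from 49340076 to 49340575 ended 52 bp before the GENCODE TSS, and its centre lay 302 bp upstream of it. RefSeq places the start of the gene at 49340360, inside this peak, so that the RefSeq gene body holds 8 peaks and not 7. Of the other flanking peaks, 1 was intergenic, centred 29.4 kb upstream of the TSS. Downstream, 1 peak was within 1 kb of a TSS of *Ankk1*, a kinase gene next to *Drd2*, and a pair of peaks 90 bp apart lay in an intron of *Ankk1*. The remaining peak lay in an intron of *Ttc12*, 106.6 kb from the *Drd2* TSS. Positions alone do not tell which gene a downstream peak acts on.

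**Figure D1:**
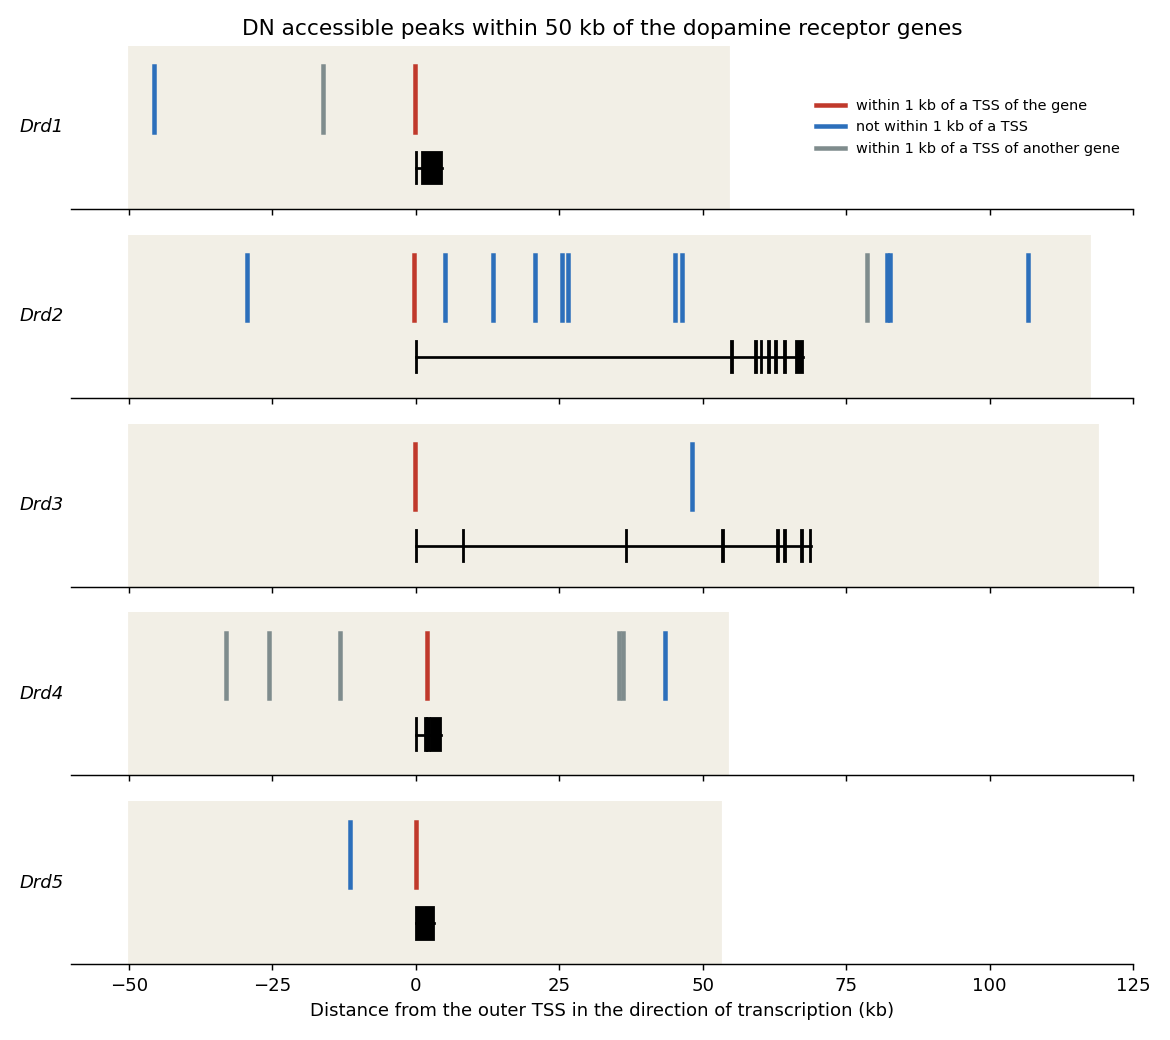
Peaks (vertical bars) in and around each dopamine receptor gene, by distance in kb from the outer TSS in the direction of transcription. Black boxes are exons of the longest basic transcript, the shaded area is the gene with 50 kb on each side, and colours mark whether a peak is within 1 kb of a TSS of the gene itself, of another gene or of none. *Drd2* has 7 peaks in its first intron, and most peaks around *Drd4* are at TSSs of other genes.

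*Drd3*, which encodes another D2-like receptor, is the member closest to *Drd2* in length. It spans 68.9 kb (chromosome 16, 43754026 to 43822932, plus strand) and also has 8 exons. It had 2 peaks, both in the gene body, against 13 for *Drd2*, a ratio of 6.5 within 50 kb and of 3.5 in the gene body. One peak, from 43753606 to 43754105, covered the outer TSS, with its centre 171 bp upstream. The other lay in the third intron, 48.2 kb downstream, and the 47.9 kb between them held no peak. The first intron of *Drd3* spans 7938 bp and held no peak, and no peak was called near the start of the shorter transcript, whose nearest peak centre was 8366 bp away. Upstream of the gene the first peak was 51.4 kb away, and downstream 66.6 kb. Of the 5234 protein-coding genes of 0.5 to 2 times its length, 86.0% had at least as many peaks within 50 kb and 55.8% at least as many in the gene body. In the gene body *Drd3* thus equalled the median of these genes, which was 2, whereas within 50 kb it was below their median of 5. Repeats masked in the reference made up 34.2% of the *Drd3* gene body and 19.4% of that of *Drd2*, and their part in the number of peaks was not tested.

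*Drd1*, the main stimulatory receptor of striatal target neurons, is a short gene of 4.52 kb (chromosome 13, 54051183 to 54055705, minus strand). Its own peak, from 54055511 to 54056010, covered the TSSs of both protein-coding transcripts and the first, non-coding exon, with its centre 55 bp upstream of the outer TSS. Both other peaks lay upstream, at 16.1 kb and 45.6 kb. The nearer one was centred 76 bp from a TSS of *Sfxn1*, which encodes a mitochondrial serine transporter, and the farther one lay in an intron of *Sfxn1*. On the downstream side no peak was called for 238.9 kb, a stretch that 13.6% of protein-coding genes reached or passed. Among 5409 protein-coding genes of 0.5 to 2 times its length, 55.2% had at least as many peaks within 50 kb.

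*Drd5*, the other D1-like gene, consists of a single exon of 3.15 kb (chromosome 5, 38319367 to 38322518, plus strand). The peak from 38319140 to 38319639 was centred 22 bp downstream of its TSS, and 10.5% of protein-coding genes had a peak centre this near or nearer. This was the smallest distance among the 5 genes. RefSeq places the start of *Drd5* at 38319509, also inside this peak. The antisense gene *Gm26560* runs across the same position, and ATAC-seq carries no strand that could tell them apart. The other peak was intergenic, 11.4 kb upstream of the TSS, with no annotated protein-coding TSS nearer to it than that of *Drd5*. Downstream of the gene no peak was called for 147.2 kb, a length that 18.6% of protein-coding genes reached or passed. With 2 peaks, *Drd5* equalled *Drd3* in count.

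*Drd4* lies in a gene-rich part of chromosome 7, from 141292006 to 141296464 on the plus strand, and is 4.46 kb long. It had 7 peaks within 50 kb, the second highest count among the 5 genes, but 5 of them were within 1 kb of TSSs of other genes. These were *Phrf1*, *Irf7* and *Sct* upstream, which encode a PHD and RING finger protein, an interferon regulatory factor and the hormone secretin, and *Deaf1* and *Tmem80* downstream, which share 2 peaks at their common start. A further peak lay in an intron of *Tmem80*. Only 1 peak overlapped *Drd4* itself, from 141293740 to 141294239, across parts of exons 2 and 3 and the 87-bp intron between them. Its centre lay 1983 bp downstream of the outer TSS and 858 bp downstream of the start of a transcript with a retained intron. It counts as a TSS peak only through that transcript, and with a distance limit of 500 bp no peak remained at any *Drd4* TSS. After removal of peaks at TSSs of other genes, 2 peaks were left for *Drd4*, 2 for *Drd1*, 2 for *Drd3*, 2 for *Drd5* and 12 for *Drd2*.

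**Figure D2:**
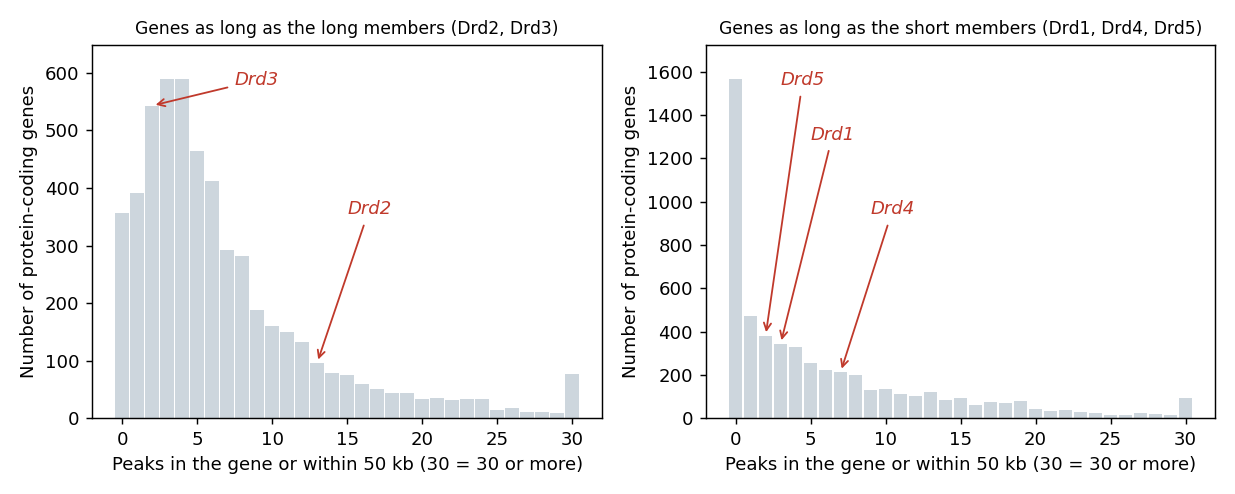
Number of protein-coding genes (y axis) by the number of peaks in the gene or within 50 kb (x axis, with 30 standing for 30 or more). The left panel holds genes of 0.5 to 2 times the length of *Drd2* and the right panel those of 0.5 to 2 times the length of *Drd1*, with arrows at the counts of the members: 13 for *Drd2*, 2 for *Drd3*, 3 for *Drd1*, 7 for *Drd4* and 2 for *Drd5*. *Drd2* lies in the right tail and *Drd3* left of the centre.

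The order of the counts changed with the distance looked at. Within 1 kb of the outer TSS, 1 peak centre was found for *Drd1*, *Drd2*, *Drd3* and *Drd5* and none for *Drd4*, and the median protein-coding gene had 1. Within 25 kb, *Drd2* had 4, *Drd3* had 1 and the others had 2, which was also the median. Within 50 kb of the TSS, *Drd2* had 9 and *Drd4* had 7, against a median of 3 and an upper quartile of 7. Within 100 kb, *Drd4* was highest with 16 and *Drd2* had 14. Within 500 kb, there were 92 peaks around *Drd4*, 53 around *Drd2*, 35 around *Drd1*, 34 around *Drd5* and 19 around *Drd3*, and the median was 30. As many peaks as *Drd4* were found around 9.99% of protein-coding genes at this scale, and as many as *Drd2* around 29.1%. The high count of *Drd2* was seen in the gene and its near flanks, and that of *Drd4* in the wider region. Between single peak counts such as 2 and 3, no order can be read.

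**Figure D3:**
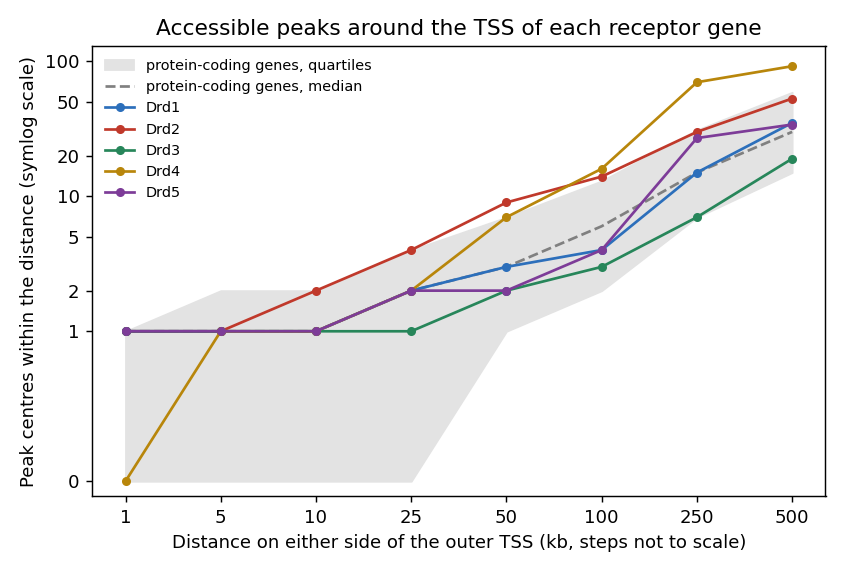
Number of peak centres (y axis, linear below 1 and logarithmic above) within a distance on either side of the outer TSS (x axis, in kb, steps not to scale) for the 5 receptor genes, with the median and quartiles of 21755 protein-coding genes. *Drd2* is above the upper quartile at 50 kb, with 9 peaks, and *Drd4* at 500 kb, with 92.

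Peaks at TSSs in CpG-rich sequence are common in any cell type, so the promoters were compared by their CpG observed/expected ratio in the 1 kb on either side of the outer TSS. *Drd2* and *Drd5* had ratios of 0.64 and 0.59, in the fourth of 5 groups of promoters of equal size, in which 86.4% of genes had a peak at the outer TSS. *Drd1* and *Drd4* had ratios of 0.47 and 0.44, in the third group, in which 70.6% had a peak. *Drd4* was thus without a peak in a group in which most promoters had one. *Drd3* had the lowest ratio, 0.33, in the second group, in which 19.4% had a peak, and was among those that did. In the 250 bp on either side, *Drd2* moved to the highest group with a ratio of 0.89. *Drd1* and *Drd4* moved to the fourth group, in which 86.3% had a peak, with ratios of 0.72 and 0.73. *Drd5* stayed in the fourth group with 0.84 and *Drd3* in the second with 0.32.

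The peaks of the 5 genes differed in base composition by their place. The 12 peaks within 1 kb of any protein-coding TSS had a median GC content of 62.3% and a median CpG ratio of 0.72, and the 15 others had 50.0% and 0.22. In all peaks of the list, the medians were 52.0% and 0.32. Of the TSS peaks of the members themselves, that of *Drd2* was richest in GC, with 69.8%, above 93.8% of all peaks of the list. It was followed by *Drd5* with 68.8%, *Drd4* with 67.6% and *Drd1* with 61.6%, and the *Drd3* peak stood apart with 45.4%. The 7 peaks in the first intron of *Drd2* were alike in GC content, between 47.2% and 51.8%, and had CpG ratios between 0.031 and 0.35. Masked repeats covered between 3.8% and 38.2% of each of them, with a median of 15.4%, against 8.40% for all peaks. The highest shares were 38.2% in the peak 20.7 kb and 36.8% in the peak 26.5 kb downstream of the TSS.

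**Figure D4:**
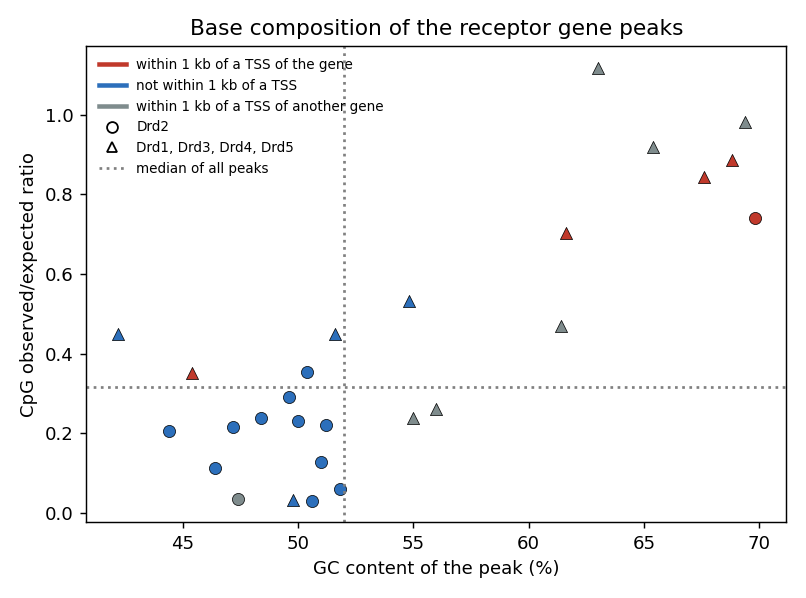
GC content (x axis, %) against the CpG observed/expected ratio (y axis) for the 27 peaks, with circles for *Drd2*, triangles for the other genes, colours for the place of the peak and dotted lines at the medians of all 55326 peaks. The TSS peak of *Drd2* lies at the upper right with 69.8% GC, and its 12 other peaks lie left of the GC median, all but 1 of them also below the CpG median.

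Sequence motifs were searched on both strands of the 27 peaks as exact letters, and each share is set beside that in all 55326 peaks. AAAGGTCA, the response element bound by the nuclear receptor *Nr4a2* (Nurr1), which DNs need for their identity, was found in 3 peaks. All 3 belong to *Drd2*, and 2 of them lie in its first intron. This is 11.1% of the 27 peaks (95% exact binomial confidence interval 2.35 to 29.2%) and 23.1% of the 13 *Drd2* peaks (5.04 to 53.8%), against 4.00% of all peaks. The interval for the 27 peaks includes the share of all peaks, whereas that for the 13 peaks lies above it. In the central 200 bp, the motif was in the same 3 of 27 peaks and in 2.13% of all peaks, just below the interval for the 27. However, *Drd2* was singled out with its results known and 10 motifs were searched, so that these shares are a description. Intervals cover counting error only, and the peaks of one gene are not independent. In all 3 the motif read AAAGGTCA on the strand of *Drd2* and lay in the central 200 bp of the peak. These central parts are shown because no other receptor gene had the motif in a peak, with the motif in capitals.
*Drd2*, 29.4 kb upstream, chr9:49311136-49311335, plus strand: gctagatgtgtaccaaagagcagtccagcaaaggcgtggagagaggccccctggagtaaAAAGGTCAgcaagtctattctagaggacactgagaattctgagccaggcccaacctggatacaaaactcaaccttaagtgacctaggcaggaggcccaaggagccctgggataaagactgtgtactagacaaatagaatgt
*Drd2*, first intron, 25.4 kb downstream, chr9:49365938-49366137, plus strand: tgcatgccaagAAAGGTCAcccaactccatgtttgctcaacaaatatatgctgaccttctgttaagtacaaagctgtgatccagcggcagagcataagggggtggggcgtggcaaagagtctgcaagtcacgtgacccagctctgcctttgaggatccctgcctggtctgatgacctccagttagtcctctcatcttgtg
*Drd2*, first intron, 45.2 kb downstream, chr9:49385681-49385880, plus strand: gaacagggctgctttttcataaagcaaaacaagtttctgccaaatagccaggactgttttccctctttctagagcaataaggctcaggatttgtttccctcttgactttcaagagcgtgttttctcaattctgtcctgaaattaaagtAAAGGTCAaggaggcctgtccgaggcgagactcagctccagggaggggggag
The matches start at bases 60, 12 and 149 of the stretches shown. A match to these letters does not show that the factor binds there.

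The other motifs were at shares near those of all peaks or too rare to judge. TGTTTAC, a forkhead motif, was in none of the 27 peaks, which allows a share of up to 11.1% (3 counts of 27), and 7.22% of all peaks held it. TAATCC, bound by Pitx and Otx factors, was in 1 peak (13.6% of all peaks), in the intron of *Ankk1*. The homeodomain motif TAATTA was in 2 peaks (7.27%), 1 of them in the first intron of *Drd2*. GGGCGG was in 9 peaks (33.3%, against 32.3% of all peaks), and 7 of these belonged to the 4 other genes. The TSS peak of *Drd2* as a whole, with its untranslated part, held 4 matches, the most in any of the 27 peaks. The E-box CAGCTG was in 9 peaks (30.9% of all peaks), 2 of them counted for *Drd2* and 7 for the 4 other genes. The E-box CAGATG was in 8 peaks (32.2% of all), 7 of them counted for *Drd2*. Of these, 3 lay in its first intron, and the others at a TSS of *Ankk1* or in introns of *Ankk1* and *Ttc12*. The 7 peaks are 53.8% of the 13 counted for *Drd2* (95% exact binomial confidence interval 25.1 to 80.8%), an interval that includes the share of all peaks. TGAGTCA (AP-1) was in 1 peak (8.0% of all peaks), 45.6 kb upstream of *Drd1*, which held 2 matches. TGACGTCA (CRE) and the consensus core of CTCF were in none, and 1.51% and 0.50% of all peaks held them. No motif was found in either peak of *Drd3*.

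The receptors of other amines and of acetylcholine offer a comparison within the same family of proteins. Of 29 such genes, 16 (55.2%) had a peak near a TSS, close to the 58.6% of all protein-coding genes, whereas all 5 dopamine receptor genes had one. At the outer TSS alone, 4 of the 5 dopamine receptor genes (without *Drd4*), 14 of the 29 (48.3%) and 54.2% of protein-coding genes had one. A peak in the gene or the 2 kb upstream was found for 20 of the 29 (69.0%), all 5 dopamine receptor genes and 65.2% of protein-coding genes. The median gene of the 29 had 5 peaks within 50 kb, near the median of 4 over all protein-coding genes, and the range was 0 to 13. None had more than the 13 peaks of *Drd2*. *Adra1a*, an adrenergic receptor gene of 135.9 kb, also had 13, of which 1 was in the gene body. In the gene body, *Chrm3*, a muscarinic receptor gene, equalled *Drd2* with 7 peaks, spread over 485.4 kb, which is 14.4 peaks per Mb against 103.6 for *Drd2*. Short genes with a peak reach higher densities, as *Drd1* with 221, *Drd4* with 224 and *Drd5* with 317 peaks per Mb of gene body, and several of the 29, of which *Adra2c*, an adrenergic receptor gene, was highest with 871. *Taar1* and *Htr1f* had no peak within 50 kb. In this set of 34 receptor genes, *Drd2* thus shared the highest count by either measure. Within 50 kb, *Drd1*, *Drd3* and *Drd5* were below the median of the 29 and that of all protein-coding genes. In the gene body both medians were 1, which *Drd1*, *Drd4* and *Drd5* equalled and *Drd3* passed with 2.

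**Figure D5:**
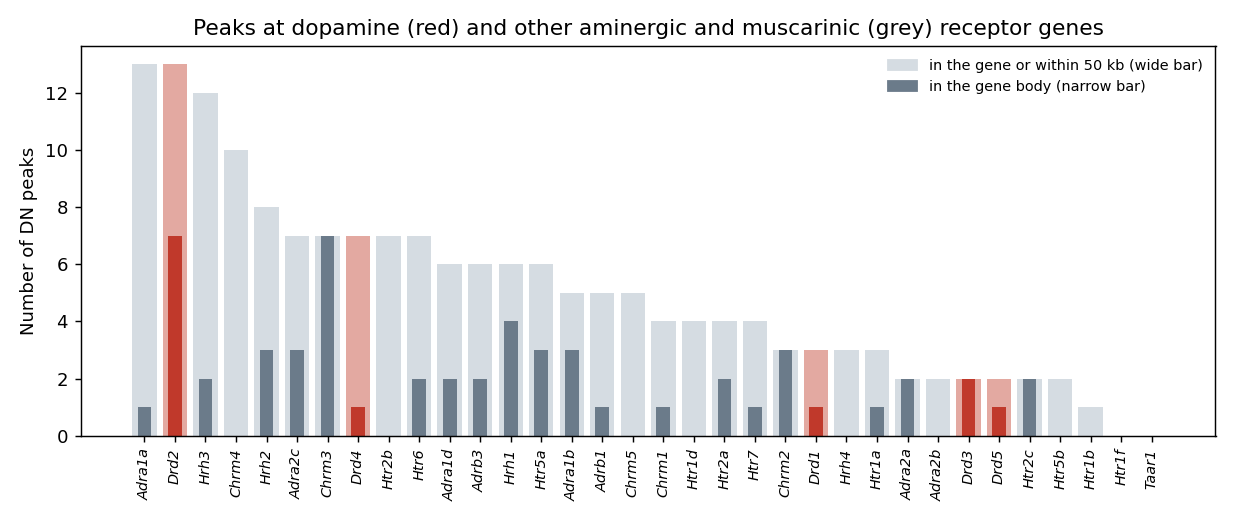
Number of DN peaks (y axis) in the gene or within 50 kb (wide bars) and in the gene body (narrow bars) for dopamine receptor genes (red) and 29 other aminergic and muscarinic receptor genes (grey), in order of the wide bars. *Drd2* and *Adra1a* share the highest count, 13, and *Drd2* and *Chrm3* share the highest body count, 7.

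Genes that make, store and clear dopamine, and those that carry or limit the receptor signal, were counted in the same way, beside 58.6% of all protein-coding genes with a peak near a TSS and their median of 4 peaks within 50 kb. Of 13 genes of synthesis, storage and clearance, 11 (84.6%) had a peak near a TSS, and the median number within 50 kb was 5, close to that of all genes. At the outer TSS alone, 8 of the 13 (61.5%) had one, against 54.2% of all. *Ddc*, which encodes the decarboxylase that forms dopamine, was highest with 21 peaks, 18 of them in the gene body, and *Maob*, a monoamine oxidase gene, was lowest with none. More peaks than *Drd2* were found within 50 kb of 3 of the 13 genes. Of 25 genes for G proteins, adenylyl cyclases, kinases and potassium channels downstream of the receptors, 23 (92.0%) had a peak near a TSS, the median within 50 kb was 13, and 11 had more than *Drd2*. *Kcnj6*, which encodes a channel subunit through which the D2 receptor quiets DNs, had 34, of which 27 lay in the gene body. The 2 without a peak in the gene or the 2 kb upstream were *Kcnj5*, a channel subunit, and *Ppp1r1b*, which encodes the DARPP-32 phosphoprotein of striatal neurons. Of 18 genes for arrestins, receptor kinases, RGS proteins and partners, 17 (94.4%) had a peak near a TSS, with a median of 11 within 50 kb. The count of *Drd2* was thus equal to the median of the transducer genes, and those of the other 4 receptor genes were below it.

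No protein-coding gene had exactly the 4 counts of *Drd2* (7 in the body, 2 upstream, 4 downstream and 1 near a TSS), and 5 differed by 1 in their sum. By likeness of these counts in the 1 list and then of length, the nearest genes were *Tpd52*, *Whrn* and *Gm28043*, with lengths of 79.1, 81.1 and 88.5 kb. *Tpd52* had 6 peaks in the body, 2 upstream, 4 downstream and 1 near a TSS. *Whrn* had 7, 2, 4 and 2, and *Gm28043* had 7, 2, 3 and 1.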

How the data were processed

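Processed data were analysed for DNs, for which the authors deposited 1 list of accessible peaks pooled over 2 libraries. They mapped reads to mm10 with Cell Ranger ATAC, removed doublets by a gate in the sort and with ArchR, filtered and clustered nuclei with ArchR, and called reproducible peaks on pseudobulk replicates by iterative overlap merging. The deposited columns hold positions only, and the depth behind a peak cannot be read from this list. Read-level files were not used here. A filter on the share of nuclei with a peak is described for later analyses, and whether it applies to this list is not given in the sources used here. The dopamine receptor genes, gene lists, motifs and alternatives were chosen with earlier results of these data known.

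Starts were read as counted from 0 and are printed counted from 1. If they were counted from 1, each peak would start 1 bp earlier. Peaks were counted at an overlap of at least 1 bp with genes of GENCODE M21 (21755 protein-coding genes on autosomes and the X chromosome), TSS peaks in the 1 kb on either side of any TSS of the gene, and repeats as lower-case bases of GRCm38, whose chromosomes hold all peaks. Named genes were the members, genes with a TSS near their peaks, the 3 genes most like *Drd2* by 4 peak counts, and the highest and lowest of the synthesis and receptor lists. *Th*, *Slc6a3*, *Slc18a2*, *Nr4a2*, *Olig1*, *Olig2*, *Sox10*, *Cx3cr1*, *Adora2a*, *Tac1*, *Kcnj5*, *Kcnj6*, *Ppp1r1b*, *Ttc12*, *Adra2c* and *Gm26560* were named after their values were seen. No p-value was computed. Counting and motif search were tested on simulated data. Computations used Python 3.11.15, numpy 2.4.6, scipy 1.17.1 and matplotlib 3.10.9.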

Additional observations from a re-analysis of the deposited data

How the results depend on the processing

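Depth limits every count, since weak peaks may not have been called and the list has no score for a stricter threshold. No paired analysis was possible because both libraries are pooled in 1 list, and for the same reason no library could be left out. Of 94 alternatives, 63 kept a count within 1.5 times its value, a share of genes within its counting interval or a CpG ratio within its group of promoters, and 31 did not. With starts counted from 1, or with basic transcripts or RefSeq spans, no count moved by more than 1.5 times.

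With a flank of 10 kb, counts were 1 for *Drd1*, 8 for *Drd2*, 1 for *Drd4* and 1 for *Drd5*, and with 25 kb *Drd4* had 2. With 100 kb, they were 22 for *Drd2*, 4 for *Drd3*, 17 for *Drd4* and 4 for *Drd5*. Without peaks at TSSs of other genes, *Drd4* had 2. Counting by peak centre left 0 peaks in the *Drd1* gene body and 1 in that of *Drd3*, since their TSS peaks are centred upstream. *Drd4* had 0 TSS peaks with 500 bp on either side and with the outer TSS alone. Among genes of similar length, the share with as many peaks within 50 kb was 55.2% for *Drd1*, 14.2% for *Drd2*, 86.0% for *Drd3*, 33.8% for *Drd4* and 61.6% for *Drd5*. For the gene body alone among all genes, it was 63.8% for *Drd1*, *Drd4* and *Drd5*, 6.04% for *Drd2* and 37.2% for *Drd3*. In the central 200 bp of peaks, TAATTA was in 0 of the 27 (1.87% of all peaks), GGGCGG in 4 (22.6%), CAGCTG in 5 (16.0%) and CAGATG in 4 (15.1%). This window is shorter than the peak, and its part in the lower counts was not tested. *Drd2* kept the highest count of the 5 genes for flanks of 10, 25, 50 and 100 kb.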
